A study of Mus musculus with 15 samples.

Results

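Runs of neighbouring positive windows were described in 15 genome architecture mapping (GAM) libraries from mouse embryonic stem cells. A window is a 40 kb interval of the mm9 genome that was called present (1) or absent (0) in a library, and a run is a series of at least 4 consecutive windows of chromosomes 1 to 19 that were all called present in the same library, so that it covers 160 kb or more. The members are the windows that belong to a run in at least 1 library. They were chosen by their calls, so the existence, length and density of runs are given here as a description and without a test. There were 1939 such windows among the 61816 windows of chromosomes 1 to 19 and the 68162 windows of the whole table. They made up 3.14% of the windows of chromosomes 1 to 19 and 14.7% of the 13176 windows called present in any library.

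All libraries hold the DNA of 1 nuclear profile each, from the same untreated cells (46C-ES, strain 129/Ola, a Sox1-GFP reporter line derived from E14tg2a) and form 1 group. The cells were grown with serum and LIF on gelatin and moved to serum-free ESGRO medium 24 h before harvest. The study placed these libraries among those that did not pass its quality control. Nothing in the labels ties a library to a separate culture, 7 library names start with f13 and 8 with f14, and the meaning of these prefixes is not stated. Because the table holds calls and no reads, the depth behind a call is unknown. The 2 copies of a chromosome cannot be told apart in these calls.

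In GAM a thin cryosection cuts through a nucleus at random, and the slice is isolated by laser microdissection, amplified and sequenced. A stretch of the chromatin fibre that lies within the slice is detected as a series of neighbouring windows, and the fibre leaves the slice where the series stops. Contacts are inferred from many slices by counting how often a pair of windows is found together. Whole genome amplification from the little DNA of a slice can also lose or favour fragments, so that a window without a call may still have been in the slice.

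Sequence from the middle of 3 of the longest runs is given so that a reader can see the range of base composition that runs cover. The 150 bases are those of the reference (NCBI Build 37, mm9, plus strand), with CpG dinucleotides (CG, the same on both strands) in capitals. The first lies in the longest run of all, in library f13g3, at chr1:161439926-161440075 and between annotated genes. The next is from the run of highest GC content among the 10 longest, in f14f2, at chr19:4699926-4700075 and also between annotated genes. The last is from the run of lowest GC content among these 10, in f14f2, at chr2:79719926-79720075, inside Pde1a on the minus strand and outside its exons.
f13g3 chromosome 1: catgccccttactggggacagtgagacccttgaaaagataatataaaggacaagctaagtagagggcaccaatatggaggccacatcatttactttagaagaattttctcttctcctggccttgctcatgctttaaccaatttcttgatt
f14f2 chromosome 19: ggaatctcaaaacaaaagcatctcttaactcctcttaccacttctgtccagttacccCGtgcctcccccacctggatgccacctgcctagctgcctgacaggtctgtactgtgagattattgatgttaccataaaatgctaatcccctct
f14f2 chromosome 2: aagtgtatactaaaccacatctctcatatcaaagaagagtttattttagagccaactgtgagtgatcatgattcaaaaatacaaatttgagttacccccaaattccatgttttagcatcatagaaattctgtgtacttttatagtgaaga
The whole runs had a GC content of 41.7%, 46.4% and 39.0%, and they held 6.81, 12.6 and 6.60 CpG per kb. A CpG was present in the chromosome 19 piece and absent from the chromosome 1 and chromosome 2 pieces. For comparison, 61.0% of the central 150-base pieces of all windows of chromosomes 1 to 19 held a CpG. Over all 399 runs the GC content lay between 35.1% and 52.4%, with a median of 41.5% beside 41.4% for all windows.

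The 15 libraries together held 399 runs with 1959 run windows, or 78.36 Mb summed over libraries. These windows were 13.3% of the 14688 positive calls on chromosomes 1 to 19. To set these numbers against chance placement, the positive windows of each library were redrawn within each chromosome, and the mean over all possible placements was computed exactly. The redraws held 4.95 runs on average, so that the observed number was 80.6 times the redraw mean. The redraws placed 20.3 windows, or 0.138% of the calls, in runs. When the 2231 windows with unknown reference bases were left out of the redraws, an alternative chosen after seeing the data, the mean was 5.42 runs.

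Most runs were short. Of the 399 runs, 221 had 4 windows (55.4%), 83 had 5, 52 had 6, 22 had 7 and 10 had 8, and 11 had 9 or more. The median was 4 windows (160 kb) and the mean 4.91 windows (SD 1.41, n = 399 runs). The longest run had 14 windows and covered 560 kb. Just outside the threshold there were 514 stretches of 3 windows, against a redraw mean of 51.0, and just inside it the 221 stretches of 4 windows stood against 4.47. Isolated positive windows were fewer than in the redraws, with 7659 stretches of a single window against 13142.

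Pooled over libraries and chromosomes, the share of stretches that went on rose with the length already reached, up to 5 windows. Of the 10336 stretches of any length, 25.9% went on for at least 1 more window. This share was 34.1% for stretches that had reached 2 windows, 43.7% for 3, 44.6% for 4 and 53.4% for 5. It was 45.3% for stretches that had reached 6 windows and 48.8% for 7, so that it lay between 43.7% and 53.4% from 3 to 7 windows. In the redraws the corresponding shares rose as well, with 5.35%, 7.54%, 8.84%, 9.72% and 10.4% for 1 to 5 windows. The stretches came from 15 libraries at 1 window and from 7 at 5 windows. How far this change of libraries entered the rise was not tested.

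**Figure D1:**
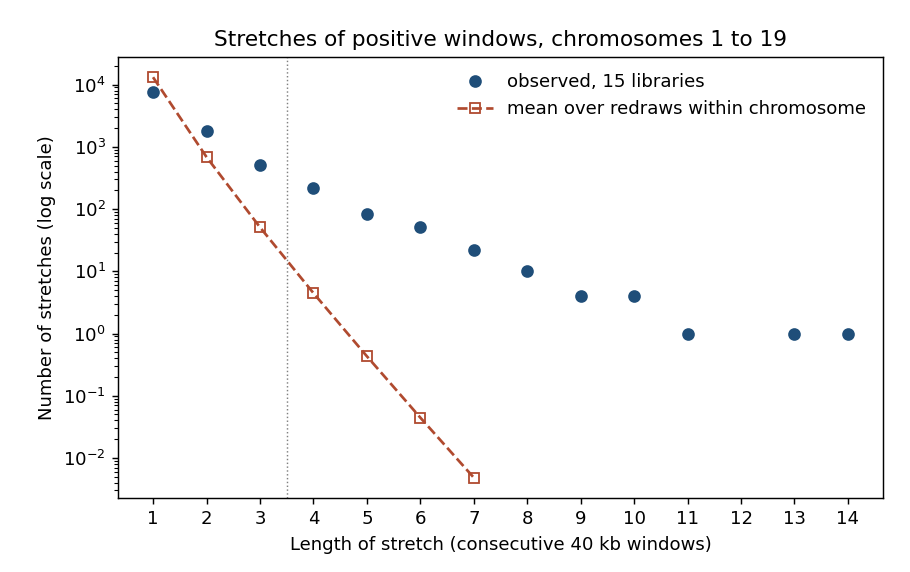
Number of stretches of consecutive positive windows (log scale) by their length in 40 kb windows, summed over 15 libraries and chromosomes 1 to 19. Filled circles are observed, open squares the exact mean over redraws within each chromosome (drawn down to 0.00483 at 7 windows), and the dotted line marks the threshold between 3 and 4 windows: from 2 to 11 windows, the observed numbers lie above the redraw means, with 221 against 4.47 at 4 windows.

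Single absent windows interrupted many stretches. When a lone 0 window between positive windows was bridged, the number of runs rose to 1156, and 11 libraries held at least 1. The longest bridged run was in f14f2, covered 35 windows (1400 kb) at chr4:94200001-95600000 and included 8 windows called absent. It contained 3 of the unbridged runs.

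The runs came from 8 of the 15 libraries, and 7 libraries had 3 or more. Library f13e1 held 106 runs among 2685 positive windows, and f13g3 held 76 among 2606. Library f14f2 held 69 runs among only 1173 positive windows. The remaining counts were 48 runs in f14g4 (1465 positive windows), 46 in f13a6 (1837), 43 in f14c2 (1829), 10 in f13e5 (1142) and 1 in f13g2 (691). The 7 libraries without a run (f13d5, f13e3, f14b5, f14e1, f14e5, f14g3 and f14g6) had between 13 and 324 positive windows, and their longest stretches were 1 to 3 windows. Libraries with runs thus had more positive windows than every library without them, and the redraw means, which take the number of positive windows into account, were 0.000319 runs or fewer in each of the 7.

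The share of positive windows that lay in runs differed widely among libraries with similar numbers of positive windows. It was 29.9% in f14f2 and 3.85% in f13e5, whose numbers of positive windows were nearly equal. It was 19.6% in f13e1, 16.0% in f14g4, 14.2% in f13g3, 12.2% in f13a6, 11.2% in f14c2 and 0.579% in f13g2. Over the 7 libraries with at least 3 runs the mean was 15.3% (SD 8.08, n = 7). The redraw mean per library was 1.39 runs in f13e1, 0.974 in f14f2 and 0.214 in f13e5. By prefix, the f13 libraries had 239 runs in 5 libraries, with 12.7% of their positive windows in runs, and the f14 libraries had 160 runs in 3 libraries, with 14.4%.

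Libraries differed in how their runs were spread over the chromosomes. Library f14f2 held 64 of its 69 runs on chromosomes 2, 4 and 19, with 29, 19 and 16 runs, and none on 14 of the 19 chromosomes. Its positive windows were concentrated in the same way, since 83.8% of them lay on these 3 chromosomes. On chromosome 19 it covered 13.2% of the windows, on chromosome 2 9.86% and on chromosome 4 8.53%, whereas it had 0 positive windows on chromosome 8, 1 on chromosome 9 and 4 on chromosome 11. Library f14g4 had 22 of its 48 runs on chromosome 8, which held 47.4% of its run windows. Library f13e1 spread its runs over 16 chromosomes and had most on chromosome 11 (20), chromosome 9 (17) and chromosome 2 (15). Library f13g3 had 18 of its 76 runs on chromosome 1. Library f14c2 had 9 on chromosome 1, and f13a6 had 8 on chromosome 13 among 14 chromosomes with runs. The redraws kept the number of positive windows of each library on each chromosome, so this concentration was already included in the redraw means. On f14f2 chromosome 2, for example, the redraw mean was 0.382 runs beside the 29 observed.

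**Figure D2:**
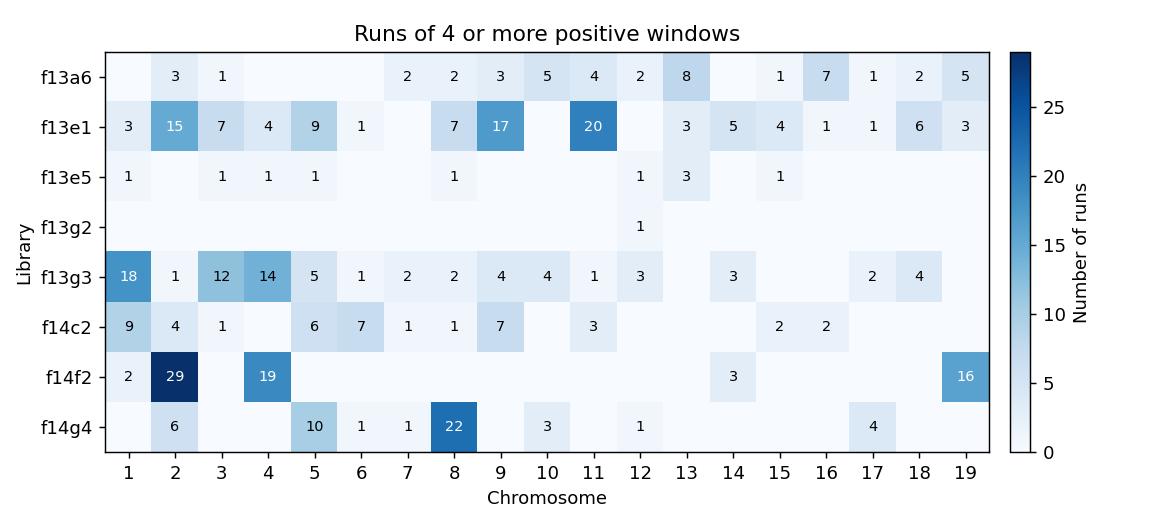
Number of runs for each library with at least 1 run (rows) on each of chromosomes 1 to 19 (columns), with darker cells for more runs and blank cells for 0. The largest entries are 29 runs of f14f2 on chromosome 2, 22 of f14g4 on chromosome 8, 20 of f13e1 on chromosome 11 and 19 of f14f2 on chromosome 4.

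On 12 of the 19 chromosomes a single library gave more than 50% of the run windows, and the share of the leading library ranged from 33.1% on chromosome 5 to 72.9% on chromosome 16. Chromosome 2 had the most runs (58), followed by chromosome 4 (38), chromosome 8 (35) and chromosome 1 (33). Relative to length, chromosome 19 was the densest, with 24 runs or 15.6 per 1000 windows, and 26.6% of its positive calls lay in runs. Of the run windows on chromosome 19, 68.3% came from f14f2. Likewise f13e1 supplied 72.0% of those on chromosome 11, f14g4 64.9% of those on chromosome 8 and f13g3 58.6% of those on chromosome 1. Without these libraries chromosome 19 kept 8 runs (5.22 per 1000 windows), chromosome 11 8, chromosome 8 13 and chromosome 1 15, and without f14f2 chromosome 2 kept 29 and chromosome 4 19. Chromosome 7 had the fewest runs, 6 or 1.57 per 1000 windows, none longer than 4 windows and from 4 libraries. It also had 375 positive calls beside 1532 on chromosome 2.

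The 10 longest runs came from 6 libraries. The longest, with 14 windows in f13g3, lay at chr1:161160001-161720000 and held the starts of Rfwd2, an E3 ubiquitin ligase gene also known as Cop1, of Gm10530 and of Tnr, which encodes tenascin R of the neural extracellular matrix. The next, with 13 windows in f13e1, lay at chr9:49040001-49560000 and held Gm4894, the dopamine D2 receptor gene Drd2, its neighbour Ankk1 and Ttc12. Both runs had a window that was positive in another library (f13e1 and f14g6), but no other library had a run there.

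Library f14f2 supplied 4 of the 10 longest runs. Its run of 11 windows at chr19:4480001-4920000 held 14 protein-coding gene starts, beginning with 2010003K11Rik, the pyruvate carboxylase gene Pcx, Lrfn4 and the CAAX protease gene Rce1, and 10.8% of its bases were exonic. Its run at chr2:118720001-119120000 (10 windows) was similarly gene-rich, with 15 starts from Bahd1, Chst14, Ccdc32 and Rpusd2 onward and 11.4% exonic bases. By contrast, its run at chr2:79520001-79920000, also of 10 windows, held the start of a single gene, Ppp1r1c, a regulator of protein phosphatase 1. Its run of 9 windows at chr4:94200001-94560000 held 7 starts, the first of them Gm10306, 5830433M19Rik, Plaa and the intraflagellar transport gene Ift74.

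The other libraries gave runs in gene-poor and gene-containing sequence alike. Library f14g4 had 10 windows at chr8:68720001-69120000, with 1810029B16Rik and the transketolase-like gene Tktl2. Library f13a6 had 10 windows at chr9:46520001-46920000 that held no protein-coding gene start and 0 exonic bases. This run lay 2.12 Mb from the run of 13 windows that f13e1 had on the same chromosome. Library f13g3 had 9 windows at chr4:52360001-52720000, with Smc2, a core subunit of condensin, Vma21-ps and 4930547C10Rik. Library f14c2 had 9 windows at chr6:5840001-6200000, with Slc25a13, a mitochondrial aspartate-glutamate carrier gene. A further run of 9 windows, in f13e1 at chr9:100160001-100520000, fell outside the 10 only through the order of ties and held Il20rb, Nck1, Tmem22 and the cohesin subunit gene Stag1. In the libraries with few runs, the longest run of f13e5 had 5 windows (chr3:151120001-151320000, without a gene start), and the single run of f13g2 had 4 windows at chr12:35080001-35240000, with the histone deacetylase gene Hdac9. Of the 10 longest runs, 8 had at least 1 window that was positive in another library and none held an unknown base. These runs have 9 to 14 windows, and 21.3% of all windows on the chromosomes described were positive in at least 1 library. How many of the 10 would hold such a window by placement alone was not computed, so the 8 do not show recurrence.

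Runs of the same library lay closer to each other than runs placed at random on the same chromosome. The 399 runs fell into 78 combinations of library and chromosome, in 23 of which a run was alone, and gave 321 neighbouring pairs. The median gap between neighbours was 3.40 Mb, with quartiles of 0.560 and 13.3 Mb and a largest gap of 98.5 Mb. Gaps of up to 5 Mb separated 183 pairs (57.0%), whereas the mean over all placements of the whole runs on their chromosome was 117 pairs (36.3%). At shorter range the ratio to the redraws was greater. Within 2 Mb there were 135 pairs against 55.5, and within 1 Mb 106 pairs (33.0%) against 29.6 (9.21%), which is 3.59 times the redraw mean. Within 10 Mb it was 1.20 times, with 219 pairs against 182. In 15 pairs a single absent window separated the runs, against 1.26 in the redraws.

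The closeness of runs was seen in each of the 6 libraries with more than 2 neighbouring pairs. Within 5 Mb lay 52 of 90 pairs in f13e1 (redraw mean 32.8), 42 of 64 in f14f2 (36.1), 32 of 61 in f13g3 (17.6), 27 of 40 in f14g4 (16.5), 17 of 32 in f14c2 (6.13) and 13 of 32 in f13a6 (7.21). Library f14f2 was closest to its redraw mean at this distance. Within 1 Mb it had 28 pairs (43.8%) against 10.1, and its ratio to the redraws (2.77) was again the lowest of the 6, the others lying between 3.51 in f14g4 and 6.05 in f14c2. Library f13a6 had the smallest share within 1 Mb among these 6, with 6 of 32 pairs (18.8%) against 1.60. The 2 pairs of f13e5 were both more than 10 Mb apart.

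**Figure D3:**
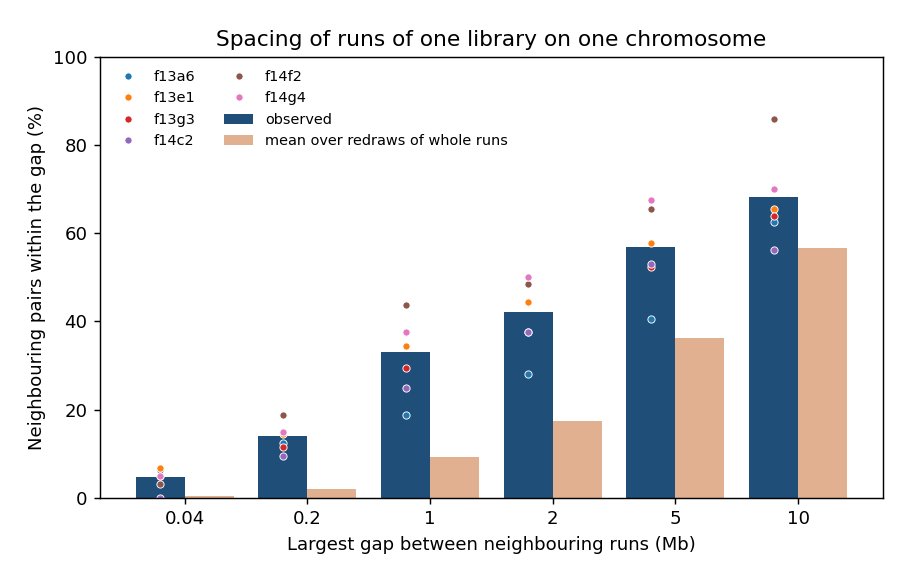
Percentage of neighbouring pairs of runs of 1 library on 1 chromosome whose gap is at most the distance on the horizontal axis (Mb), for 321 pairs (dark bars) and as the exact mean over placements of whole runs (light bars). Points are the 6 libraries with 32 or more pairs: the pooled values are 33.0% against 9.21% at 1 Mb and 57.0% against 36.3% at 5 Mb.

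When runs with gaps of at most 1 Mb were joined, 176 of the 399 runs (44.1%) fell into 70 chains, 24 of which held 3 or more runs and 9 of which held 4 or more. The chain with most runs was in f13e1 at chr9:98760001-100960000, where 6 runs lay within 2.20 Mb. In this span 36 of 55 windows were positive (65.5%), compared with 8.64% of all windows of chromosome 9 in that library. The longest chain, in f13g3 at chr1:160200001-162520000, held 5 runs within 2.32 Mb, including the longest run of all. There 70.7% of the windows were positive, compared with 7.24% on the whole chromosome. Chains were found in 6 libraries, from 4 in f13a6 to 21 in f13e1. Between runs up to 1 Mb apart, 25.8% of the windows were positive.

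Windows near a run were positive more often than windows far from one. The window next to a run is absent by definition. At 2 windows from the end of a run (80 kb), 33.9% of the windows were positive over the 7 libraries with at least 3 runs. This share fell to 27.0% at 120 to 200 kb, 20.9% at 240 to 400 kb, 15.9% at 440 to 1000 kb, 9.27% at 1040 to 2000 kb and 5.75% at 2040 to 5000 kb. Beyond 5 Mb on the same chromosome it was 2.36%, and over the windows outside runs on these chromosomes 4.04%. Chromosomes without a run of the library were not counted in any of these shares. The order was the same in 6 of the 7 libraries at all distances shown. The exception was f13e5, in which 1 of 20 windows (5.00%) was positive at 80 kb. The calls are those that defined the runs, so that no test was made.

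**Figure D4:**
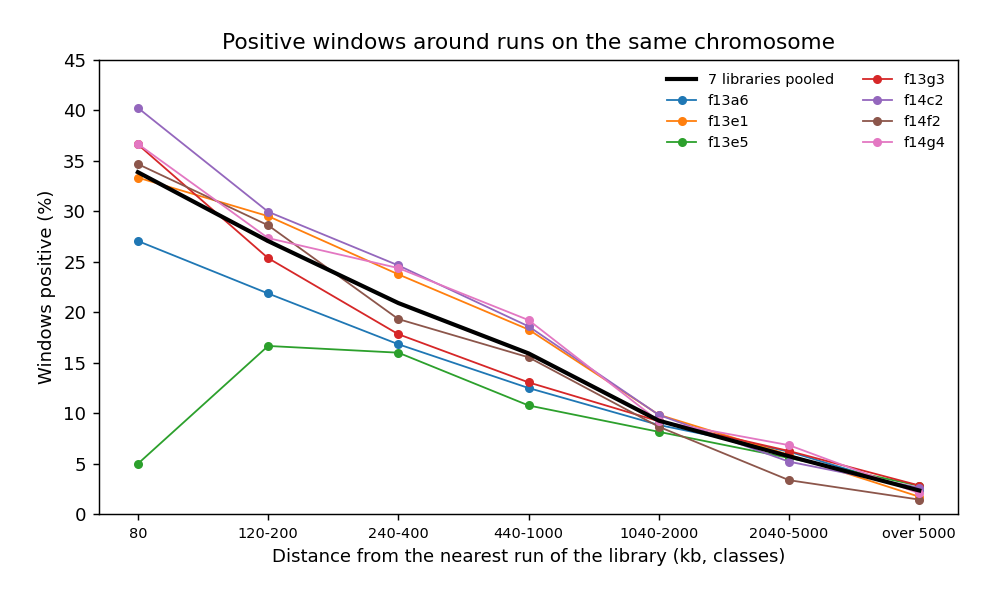
Percentage of windows that were positive by distance from the nearest run of the same library on the same chromosome (classes in kb), for 7 libraries and for their pooled windows (thick line). Windows on chromosomes without a run of that library are not included. The pooled share falls from 33.9% at 80 kb to 2.36% beyond 5 Mb, and f13e5 lies lowest at 80 kb with 5.00%.

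Along the chromosomes, the run windows of all libraries together were spread in a similar way to the other positive calls. The largest share of both lay nearest the centromere, but for run windows this did not hold without f14c2 or without f14g4. When chromosomes were divided into 5 equal parts from the centromeric end, after the unknown bases at the start, the run windows were split into 23.9%, 18.8%, 19.8%, 17.7% and 19.9%. The other positive calls were split into 22.8%, 17.6%, 19.5%, 20.7% and 19.3%, and the 5 parts held nearly equal numbers of windows (12069 to 12084). Single libraries departed from this in opposite directions. The part nearest the centromere held 51.7% of the run windows of f14c2 and 45.3% of those of f14g4, but 10.3% of those of f13a6 and 11.4% of those of f14f2. Leaving out 1 library at a time, it held from 20.6% (without f14c2) to 26.6% (without f14f2) of the pooled run windows. The most distal part held 22 of the 44 run windows of f13e5 and 36.6% of those of f13a6, but 1.95% of those of f14c2 and 3.42% of those of f14g4. The other positive windows of f14c2 and f14g4 were also shifted towards the centromere, by less, with 32.3% and 32.7% in the first part. Of the 399 runs, 26 started within 5 Mb of the first analysed window and 17 ended within 5 Mb of the distal end. Each of these ends covered 3.93% of the windows, and the share of other positive calls there is not given.

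Runs of different libraries overlapped in few windows, a number near the mean when runs were rotated within the chromosome. Of the 1939 windows, 20 belonged to runs of 2 libraries and none to runs of 3. The mean over all rotations of the libraries' runs against each other within the chromosome was 23.9 shared windows. The 20 windows formed 7 regions. At chr2:126800001-126960000, f14f2 and f14g4 shared 4 windows with the starts of Ap4e1, an adaptor protein complex subunit gene, the biliverdin reductase gene Blvra and the condensin subunit gene Ncaph. Libraries f13e1 and f14f2 shared 4 windows at chr19:44840001-45000000, without a gene start, and 3 at chr19:45440001-45560000, with Gm6807. Libraries f14f2 and f14g4 shared 3 windows at chr2:152720001-152840000, with the starts of Mylk2, a myosin light chain kinase gene of skeletal muscle, the forkhead gene Foxs1, Dusp15 and Ttll9. Libraries f13e1 and f14c2 shared 3 windows at chr9:14160001-14280000, with Endod1. At least 1 window that was positive in another library, inside or outside a run of that library, lay in 194 of the 399 runs (48.6%). A run has several windows, and 21.3% of all windows on the chromosomes described were positive in at least 1 library. How many runs would hold such a window by placement alone was not computed. As means over 7 libraries, 17.8% of run windows and 19.7% of other positive windows were positive in another library.

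Genes in runs were compared with all genes by count. Of the 21418 protein-coding genes on chromosomes 1 to 19 in the GENCODE annotation of mm9, 726 (3.39%) had their start in a run. Of 27 pluripotency genes, 2 did, both regulators that act in the maintenance of embryonic stem cells. Klf2 (chr8:74842932-74845555, plus strand), which encodes a Krüppel-like factor, started in a run of 4 windows of f14g4 at chr8:74840001-75000000. Its run had a GC content of 48.6% and held 4 further starts (Eps15l1, Calr3, 1700030K09Rik and Cherp), and no other library was positive there. Stat3 (chr11:100746412-100800854, minus strand), the transcription factor downstream of LIF, started in a run of 5 windows of f13a6 at chr11:100760001-100960000. Windows of this run were also positive in f13e1 and f14e5. Stat3 was followed in the run by 7 further starts, the first of them Ptrf, Atp6v0a1 and Naglu.

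The 150 bases upstream of both starts are shown because they lie in windows of the runs. They are reference sequence, and the calls do not show which bases of a window were read. They are written 5′ to 3′ on the strand of the gene, with CpG in capitals, at chr8:74842782-74842931 for Klf2 and chr11:100800855-100801004 for Stat3. Neither piece overlaps an annotated gene or exon.
Klf2 upstream: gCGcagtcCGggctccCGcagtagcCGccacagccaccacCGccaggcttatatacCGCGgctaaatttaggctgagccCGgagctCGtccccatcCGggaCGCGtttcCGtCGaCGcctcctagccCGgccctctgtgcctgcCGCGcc
Stat3 upstream: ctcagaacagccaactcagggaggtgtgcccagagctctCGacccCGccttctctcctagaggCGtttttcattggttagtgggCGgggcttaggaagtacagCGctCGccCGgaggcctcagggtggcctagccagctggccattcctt
The Klf2 piece held 18 CpG at a GC content of 69.3%, and the Stat3 piece held 7 at 61.3%. Of the 21415 upstream pieces of protein-coding genes without unknown bases, 87.5% held a CpG, 48.1% held 7 or more and 11.3% held 18 or more. Both runs therefore included a start with at least the median number of CpG, which was 6.

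In 4 further lists no member lay in a run. None of 40 Hox genes, which pattern the body axis, 18 imprinted genes, 67 histone cluster genes and 46 keratin genes had their start in a run, where the share of all genes, 3.39%, would give 1.36, 0.610, 2.27 and 1.56 genes. In a positive window, whatever the length of its stretch, started 1 of the 40 Hox genes, 27.8% of the imprinted genes, 28.4% of the histone cluster genes and 23.9% of the keratin genes, compared with 22.6% of all genes. Members of such clusters share windows and are not independent of each other. Of 1106 olfactory receptor genes, 46 (4.16%) started in a run, but they lay in 22 windows and 29 of them came from f14f2 on chromosome 2. Without f14f2, 17 (1.54%) did. The share of all genes without f14f2 was not computed, so 1.54% cannot be set against 3.39%. In that library the run at chr2:85600001-85760000 held 12 of them, from Olfr1012 to Olfr1025-ps1, and the run at chr2:87680001-87880000 held another 12, from Olfr1151 to Olfr73. Library f14c2 had 9 in a run at chr9:38200001-38360000. Of 327 vomeronasal receptor genes, 2 (0.612%) started in a run (Vmn1r72 and Vmn1r73, both in f14g4), where the share of all genes would give 11.1. In any positive window started 12.5% of the 327, compared with 22.6% of all genes. Of 138 ribosomal protein genes, 5 (3.62%) started in a run, and 4 of these carry pseudogene symbols. Of 365 zinc finger genes, 12 (3.29%) did. Of these, 5 (Zfp282, Zfp212, Zfp956, Zfp777 and Zfp746) lay in a single run of 6 windows of f14c2 at chr6:47800001-48040000. Without f14c2, 7 remained, and the matching share of all genes was not computed.

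Runs differed widely in gene content. No protein-coding gene started in 146 of the 399 runs (36.6%), and the median was 1 start. The most was 21, in a run of 7 windows of f14f2 at chr2:164360001-164640000 that covers a cluster of whey acidic protein domain genes (Wfdc2, Wfdc3, Wfdc8 and others). The run of highest GC content (52.4%), in f14g4 at chr17:25880001-26040000, held 16 starts within 4 windows. These runs were named after their values were seen.

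To ask whether run windows differed from other positive windows of the same library, the mean of each library was compared over the 7 libraries with at least 3 runs, with an exact two-sided sign-flip permutation test and Benjamini-Hochberg adjustment over 9 tests. The smallest p that 7 libraries can give is 0.0156. A single comparison at that p would be 0.141 after adjustment, so that it could pass only if other comparisons also had a small p. If only comparisons at the smallest p are counted, at least 3 would be needed. None of the 9 comparisons passed the threshold of 0.05. Run windows had a mean GC content of 42.2% and other positive windows 42.0%, a difference of 0.161 percentage points (SD 0.716, n = 7, exact permutation p = 0.609, adjusted p = 0.824). The difference was positive in 4 of 7 libraries, from -0.698 in f13e1 to 1.25 in f14f2. Gene starts per window were 0.351 in runs and 0.372 outside them, and exonic bases 3.07% and 3.28%. Each of these differences was smaller than its SD over the 7 libraries, and neither passed the threshold (adjusted p = 0.824 for both, exact permutation test, n = 7). Library f14f2 again stood highest, with 0.687 starts per run window and 0.496 per other positive window. Relative position from the centromere (0) to the distal end (1) was 0.489 and 0.510 (adjusted p = 0.824, exact permutation test, n = 7).

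The share of windows that were also positive in another library was 17.8% in runs and 19.7% in other positive windows, a difference of -1.97 percentage points (SD 4.18, n = 7, exact permutation p = 0.328, adjusted p = 0.824). It was lower in runs in 5 of 7 libraries, most in f13e5 (13.6% against 21.6%) and f14g4 (13.7% against 21.3%).

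Run windows were also compared with the absent windows that border them, which lie in the same neighbourhood. GC content was lower in runs in 6 of 7 libraries, with a mean of 42.2% against 42.4% in the bordering windows. The difference of -0.218 percentage points (SD 0.234, n = 7) had an exact permutation p of 0.0625 and an adjusted p of 0.562. The exception was f13e5, where 20 bordering windows entered. In the same exact permutation test, gene starts per window (0.351 against 0.345, adjusted p = 0.891), exonic bases (3.07% against 3.29%, adjusted p = 0.824) and the share positive in another library (17.8% against 18.5%, adjusted p = 0.844) did not pass the threshold. Each of these differences was smaller than its SD over the 7 libraries.

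**Figure D5:**
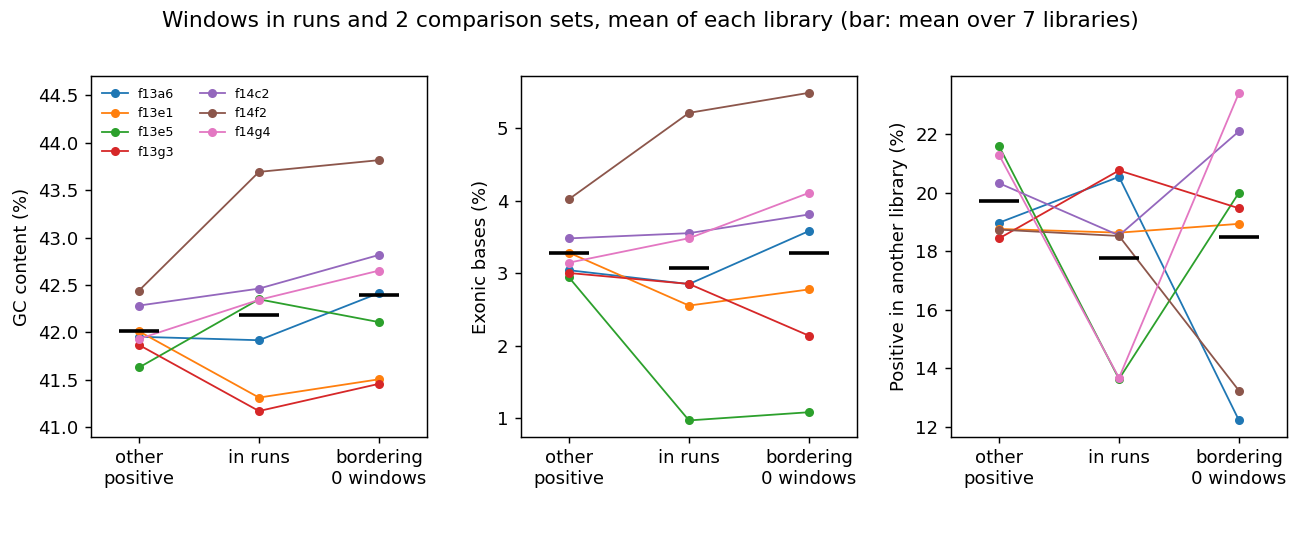
Mean GC content (%), exonic bases (%) and windows positive in another library (%) for other positive windows, windows in runs and the 0 windows that border runs, with 1 line for each of 7 libraries and a bar for their mean; the vertical axes do not start at 0. In each panel the means over libraries lie close together beside the spread of the lines, for example 42.0%, 42.2% and 42.4% for GC content.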

How the data were processed

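GAM libraries of 15 single nuclear profiles were analysed. Per the labels, DNA was amplified with the Sigma WGA4 kit, prepared with Nextera and aligned to mm9 with Bowtie2 2.1. The deposited values are 0 or 1 calls per 40 kb window; for multiplex-GAM the methods name GAMtools with a cut-off of 4 reads, whether it was used here is not stated, and the depth is unknown. All 15 columns were mapped by library name and 0 were left unmapped.

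Runs of at least 4 positive windows were found per library on chromosomes 1 to 19. Means over redraws were computed in closed form: all placements of positive windows, or of whole runs, within a chromosome, and all rotations. GC content, sequence and genes came from NCBI Build 37 and its GENCODE annotation, whose lengths equal those of the table on 20 of 20 chromosomes. Measures of run windows were averaged per library and tested over libraries with at least 3 runs by exact sign-flip permutation. Code was tested on simulated data. The members, gene lists and tests were chosen with earlier results of these data known. Named runs were the 10 longest, the longest of each library and up to 5 regions shared by most libraries, with up to 4 protein-coding genes each, and pluripotency and Hox genes in runs; other names were chosen after their values were seen. Repeat content was not used, since the reference marks no repeats. Alternatives changed the run threshold, bridging, windows, distances and libraries. Python 3.11.15 was used with numpy 2.4.6, pandas 2.3.3, scipy 1.17.1 and matplotlib 3.10.9.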

Additional observations from a re-analysis of the deposited data

Results flagged for a closer look

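Outside the chromosomes described, chromosome X held 25 runs of 4 or more positive windows, with 125 run windows. They came from 4 libraries, with 12 runs in f14f2, 8 in f13e1, 4 in f14c2 and 1 in f13g3, and the longest had 10 windows. Relative to length there was 1 run for every 167 windows, beside 1 for every 155 on chromosomes 1 to 19. The result stands here because it lies in windows that the comparisons did not use, and a single library supplied 12 of the 25.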

How the results depend on the processing

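The number of runs (399, with 1959 run windows) moved with the threshold: 913 runs with 3501 windows at 3 or more windows, 178 with 1075 at 5 or more and 95 with 660 at 6 or more. Bridging single 0 windows gave 1156 runs with 7217 windows, which include the bridged 0 windows. Without bridging, the median share of positive windows in runs over the 15 libraries was 0.579%. After bridging, the windows in runs came to a median of 13.02% of the number of positive windows. This value counts bridged 0 windows and is not a share of positive windows. Leaving out each library gave 293 to 399 runs and 1433 to 1959 windows, with the lowest values without f13e1, a median share of 0.289% to 2.22%, 54.9% to 58.8% of neighbouring runs within 5 Mb and 20.6% to 26.6% of run windows in the part nearest the centromere. Of the neighbouring runs, 33.0% lay within 1 Mb. In 20 of the 131 alternative fits of the 9 tested comparisons the sign changed. None passed the threshold, which says nothing about stability: with the 3 f14 or 4 f13 libraries no p can pass, and with 6 libraries at least 6 comparisons would have to reach the smallest p (0.0312) together.

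Against other positive windows, the GC difference was -0.196 at 5 or more windows, -0.273 with libraries of 1 run or more, -0.178 in f13 libraries and between -0.0204 and 0.305 leaving out 1 library. Gene starts were 0.0822 higher and exonic bases 0.533 points higher in runs in f14 libraries, and they ranged from -0.0565 to 0.00351 and from -0.439 to 0.0878 leaving out 1 library. Relative position was 0.0337 in f13 libraries and -0.0402 to 0.000822 leaving out 1 library. Against bordering windows, the share positive in another library differed by 0.346 at 3 or more windows, 0.782 at 5 or more and 0.735 in f13 libraries, and by -2.23 to 0.778 leaving out 1 library. Exonic bases differed by 0.193 at 5 or more windows, and gene starts by -0.0151 in f13 libraries and -0.0132 to 0.0176 leaving out 1 library. The cause of these sign changes was not tested.

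No paired analysis was possible because the libraries form 1 group, with no groups to pair by number; the 9 tests take differences within each library. The comparison of repeat content was not run. The calls carry no depth, so an absent window cannot be told from one that was not sampled, and 7 libraries limit the tests.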
